A study of Mus musculus with 2 samples.

Results

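Broad peaks of 5-hydroxymethylcytosine (5hmC) were taken from both peak lists of a study of mouse embryonic stem (ES) cells. A peak was taken if it lay on chromosomes 1 to 19, was at least 2000 bp long, held under 100 tags (aligned reads) and shared at least 1 bp with a peak of the other list. These conditions were met by 1980 of the 57827 peaks of one list and by 449 of the 63834 peaks of the other, or 2429 of 121661 in all. The members were selected on measured length, tag count and overlap, so their values in these measures are a description. Both groups of the study were ES cells of strain 129SvEv. One group had been kept with ascorbic acid (AA, vitamin C) at 100 µM for 24 h. The label of the other group names no such incubation, and the design text describes a comparison of treated with untreated cells. Each group was 1 library of DNA fragments, pulled down by a biotin tag placed chemically on 5hmC. Nothing in the labels gives a further limit of the cells as a model, and the source of the ES line is not given in the sources used here.

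The deposited lists are called the AA-labelled and the no-AA-labelled list. In 2 of 2 files the header names the run of the other sample. The assignment on record was kept, and if the headers are right instead, every direction between the lists is the opposite. The libraries held 11907082 and 18398162 tags after duplicate removal, a 1.55-fold difference in depth. The fragment length used by the peak caller was 229 bp in the AA-labelled and 165 bp in the no-AA-labelled library, and called peaks were longer in the former over the whole list (median 1032 against 778 bp). Depth, fragment length and label differ together and cannot be told apart with 1 library per group. There was no replicate, so no test between groups was made. The intervals given are 95% intervals for counting error or for the spread over peaks only. All positions are on mouse build mm9. No genome sequence or gene annotation of that build was used, so regions carry neither gene names nor sequences.

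5hmC arises when Tet dioxygenases oxidise 5-methylcytosine, and it is a step on a route by which methylation can be removed. These enzymes depend on iron and 2-oxoglutarate, and ascorbic acid is known to support them. In ES cells the mark is known from gene bodies, from distal enhancers and from the surroundings of CpG-rich promoters, where Tet proteins bind. A pull-down profile shows where fragments with the mark pile up. A long peak is therefore a stretch over which the pile-up stayed above the caller's local background, and it does not tell whether 1 long domain or several close sites lie beneath.

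Broad peaks were a small fraction of the shared peaks, and far more of them were called in the AA-labelled list. They made up 7.47% of its 26520 shared autosomal peaks (Clopper-Pearson interval 7.15% to 7.79%). The no-AA-labelled list had 1.67% of 26864 (1.52% to 1.83%). In bases, the AA-labelled broad peaks covered 4.72 Mb and the no-AA-labelled ones 0.987 Mb, or 14.0% and 3.64% of the length of all shared autosomal peaks. The order of the lists depended on a length in bp that was the same for both. Once the threshold of the no-AA-labelled list was lowered to 1441 bp, in the ratio of the fragment lengths, that list had 2981 broad peaks against 1980. The tag limit also bore more on the deeper library. It stood at 8.40 tags per 1000000 kept tags in the AA-labelled and 5.44 in the no-AA-labelled library. It kept out 832 of the 2812 shared autosomal peaks of at least 2000 bp in the former and 647 of 1096 in the latter.

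Most members lay close to the length threshold. The AA-labelled members ran from 2000 to 3851 bp with a median of 2292 bp, and 108 of 1980 reached 3000 bp. The no-AA-labelled members ran from 2000 to 2836 bp with a median of 2164 bp, and 26 of 449 reached 2500 bp. There was no break in length at the threshold. Just inside it (2000 to under 2100 bp) lay 421 peaks of the AA-labelled list and 152 of the other, and just outside it (1900 to under 2000 bp, shared, under 100 tags) lay 521 and 222. At the tag limit, shared peaks of at least 2000 bp with the 5 tag counts just under 100 numbered 179 and 101, and those with the 5 counts from 100 up numbered 112 and 86. The AA-labelled peaks nearest to the length threshold had 2000 bp with 85 tags (chromosome 9, 21598246 to 21600245), 2000 bp with 94 tags (chromosome 1, 194294716 to 194296715) and 2001 bp with 75 tags (chromosome 1, 18067839 to 18069839). Their nearest neighbours below it, all of 1999 bp, held 84 tags (chromosome 8, 11611715 to 11613713), 53 tags (chromosome 17, 84118474 to 84120472) and 68 tags (chromosome 3, 95503050 to 95505048). The no-AA-labelled peaks on either side of the threshold were alike in the same way. Those at 2000, 2000 and 2001 bp held 94 tags (chromosome 14, 4342745 to 4344744), 83 tags (chromosome 1, 82999744 to 83001743) and 77 tags (chromosome 8, 26040983 to 26042983). Those at 1999 bp held 94 tags (chromosome 8, 3530766 to 3532764), 89 tags (chromosome 2, 30733671 to 30735669) and 82 tags (chromosome 5, 117705073 to 117707071).

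Broad peaks had a lower fold enrichment than shorter shared peaks, but not a lower tag density. The fold enrichment given by the authors, which sets tags against the background their caller assumed, had a median of 5.50 in the AA-labelled broad peaks (quartiles 4.72 and 6.65) and 8.62 in that list's shared peaks under 2000 bp. The no-AA-labelled medians were 4.66 (4.06 and 5.44) and 7.13. A fold of at least 10 was reached by 43 of 1980 AA-labelled broad peaks (2.17%), against 31.4% of the shorter ones. None of the 449 no-AA-labelled broad peaks reached it, which allows a share of up to 0.668%, against 14.6% of the shorter ones. Among the long shared peaks with 100 or more tags, 2.52% and 2.47% reached that fold, so low folds were found in long peaks on both sides of the tag limit. The lists were called with no control, so the background came from the same library as the peaks. The part of peak length in the fold was not tested. Tags per kb were a little higher in broad than in shorter peaks as a whole. The medians were 30.6 tags per kb in AA-labelled broad peaks against 27.0 in shorter ones, and 39.6 against 36.5 in the no-AA-labelled list. Among shared peaks with under 100 tags, density rose with length up to the class of 1500 to under 2000 bp. The medians there were 31.1 (AA-labelled) and 41.0 (no-AA-labelled) tags per kb, against 24.3 and 34.7 below 1000 bp. From 2000 to under 2500 bp and from 2500 bp up they were 31.2 and 29.7 in the AA-labelled list. In the no-AA-labelled list they were 39.8 and 36.1. The tag limit caps the density of long members. In the caller's p-value, the members sat a little above the shorter peaks. Their median score of 10 times the −log10 p was 90.2 against 82.0 in the AA-labelled and 91.7 against 80.3 in the no-AA-labelled list.

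The fall of the fold with length was gradual and ran through the threshold. Among shared AA-labelled peaks with under 100 tags, the median fold was 9.32 below 1000 bp, 8.26 from 1000 to under 1500 bp, 6.75 from 1500 to under 2000 bp, 5.72 from 2000 to under 2500 bp and 5.09 from 2500 bp. The no-AA-labelled medians over the same classes were 7.84, 6.16, 5.32, 4.69 and 4.30. Broad peaks were thus the low end of a gradient in fold, not a class apart from the rest.

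The members of highest fold had lengths from 2052 to 2563 bp. The AA-labelled list was led by chromosome 16 (3114678 to 3116762, 94 tags) at 14.33-fold. It covered a pair of separate no-AA-labelled peaks, at 13.05-fold with 29 tags and 14.58-fold with 39 tags. Next came chromosome 8 (9946202 to 9948281) at 12.41-fold, whose no-AA-labelled counterpart was also high at 14.93-fold. Another site on chromosome 8 (73909142 to 73911704) had 12.27-fold but only 5.36-fold in the other list. Chromosome 19 (28229336 to 28231695) at 11.91-fold and chromosome 2 (109562528 to 109564625) at 11.82-fold completed the first 5. The no-AA-labelled list was led by chromosome 8 (5639326 to 5641396, 96 tags) at 9.72-fold, with 11.37-fold in its AA-labelled counterpart. Behind it were chromosome 16 (41574975 to 41577142) at 9.20-fold, chromosome 14 (52053770 to 52055824) at 8.59-fold, chromosome 18 (39933022 to 39935300) at 8.36-fold and chromosome 17 (59184148 to 59186199) at 8.24-fold.

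At the other end lay the members of lowest fold, from 2.86 to 3.12. Chromosome 7 (31367531 to 31370239, 81 tags) had the lowest AA-labelled fold at 2.86, chromosome 18 (77794426 to 77796508, 94 tags) followed at 2.92 and chromosome 16 (94007296 to 94010145, 99 tags) at 3.06. Their no-AA-labelled counterparts were also low, at 3.51-fold, 3.46-fold and 4.42-fold. Chromosome 9 (118918659 to 118920723) had the lowest no-AA-labelled fold at 2.93, followed by 3.10 at the peak on chromosome 4 that ran from 149541338 to 149544049, and by 3.12 on chromosome 13 (108753912 to 108755957). Here too the AA-labelled counterparts stayed under 5-fold, at 4.85, 4.48 and 3.74.

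Extent over 2 kb was matched in the other list for a minority of the AA-labelled members and for just over 50% of the no-AA-labelled ones. Of the 1980 AA-labelled members, 353 had a no-AA-labelled counterpart of at least 2000 bp, or 17.8% (16.2% to 19.6%). For AA-labelled shared peaks under 2000 bp this share was 1.35%, and over all shared autosomal peaks of the list it was 4.17%. Of the 449 no-AA-labelled members, 247 had an AA-labelled counterpart of at least 2000 bp, or 55.0% (50.3% to 59.7%), against 8.39% of the shorter ones and 11.0% over all. The length of the counterpart was not part of the rule in either list, and both shares lay above those of the shorter peaks beyond counting error. At a counterpart length that matched the same percentile of its own list (1469 and 2702 bp), the shares came to 44.2% and 19.8%. The low share of the AA-labelled members thus became the higher of the pair. Among the long shared peaks kept out by the tag limit, 52.0% (AA-labelled) and 83.3% (no-AA-labelled) had a counterpart of at least 2000 bp. Such a match was thus more common there than in the members of either list. Those peaks were also longer, with medians of 3119 and 2594 bp, and the part of tag count or length was not tested. The members are called broad peaks here, not domains, since an extent over 2 kb was often not held in both lists, above all for AA-labelled members.

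Counterparts of AA-labelled members had a median length of 1369 bp (quartiles 1028 and 1832 bp), while those of no-AA-labelled members had 2068 bp (1638 and 2547 bp). AA-labelled members were longer than their counterpart in 92.0% of cases, and no-AA-labelled members in 56.1%. Shorter shared peaks of the AA-labelled list were longer than theirs in 74.3%, and those of the no-AA-labelled list in 22.1%. Each list's members thus exceeded their counterparts more often than its shorter peaks did. Members were chosen for their length in that list, and this choice alone favours a shorter counterpart.

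**Figure D1:**
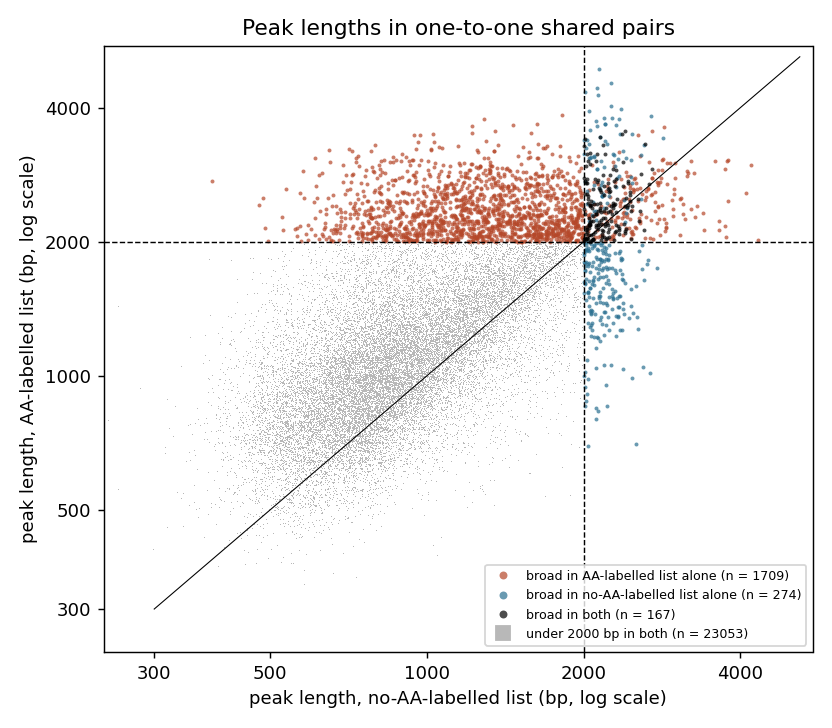
Each point is a pair of peaks that overlapped one to one, with its length in the no-AA-labelled list (horizontal, bp, log scale) and in the AA-labelled list (vertical, bp, log scale), for pairs with a broad peak or with both peaks under 2000 bp. Dashed lines mark 2000 bp and the solid line marks equal length. Most of the 1709 pairs broad in the AA-labelled list alone spread left of the dashed line, and the 167 pairs broad in both sit close to the corner.

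Overlaps that joined a broad peak of one list with a broad peak of the other numbered 169, which is 8.54% of the AA-labelled and 37.6% of the no-AA-labelled members. Of the shorter shared peaks, 0.869% and 6.70% overlapped a broad peak of the other list. Of the long shared peaks with 100 or more tags, 9.38% and 28.4% did. Together the members of both lists marked 2260 places. Some missed the count through the tag limit: 184 AA-labelled members overlapped a no-AA-labelled peak of at least 2000 bp with 100 or more tags, and 78 no-AA-labelled members overlapped such an AA-labelled peak. In the 167 pairs that were one to one and broad in both, the median length was 2342 bp in the AA-labelled and 2162 bp in the no-AA-labelled list. The AA-labelled peak was the longer one in 122 of them. The overlap took up a median of 87.4% of the longer peak.

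The longest of these pairs by summed length was on chromosome 14. Its AA-labelled peak (54986342 to 54989892) was 3551 bp long with 98 tags, and its no-AA-labelled peak was 2402 bp long with 89 tags and lay wholly inside it. A pair on chromosome 15 (10502547 to 10505864) had 3318 and 2626 bp, with 92 and 99 tags. On chromosome 19 (7220727 to 7224214) the lengths were 3488 and 2369 bp, but the peaks were set off from each other and shared 1676 bp. Next came chromosome 4 (149541088 to 149543994) with 2907 and 2712 bp, which overlapped over 91.4% of the longer peak. The other 4 were on chromosomes 5 (64436071 to 64439499), 4 (12040060 to 12043354), 12 (111758532 to 111761367) and 11 (69558375 to 69561775). The AA-labelled peak was longer in all 8, and the summits of these pairs lay between 296 and 1947 bp apart.

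**Figure D2:**
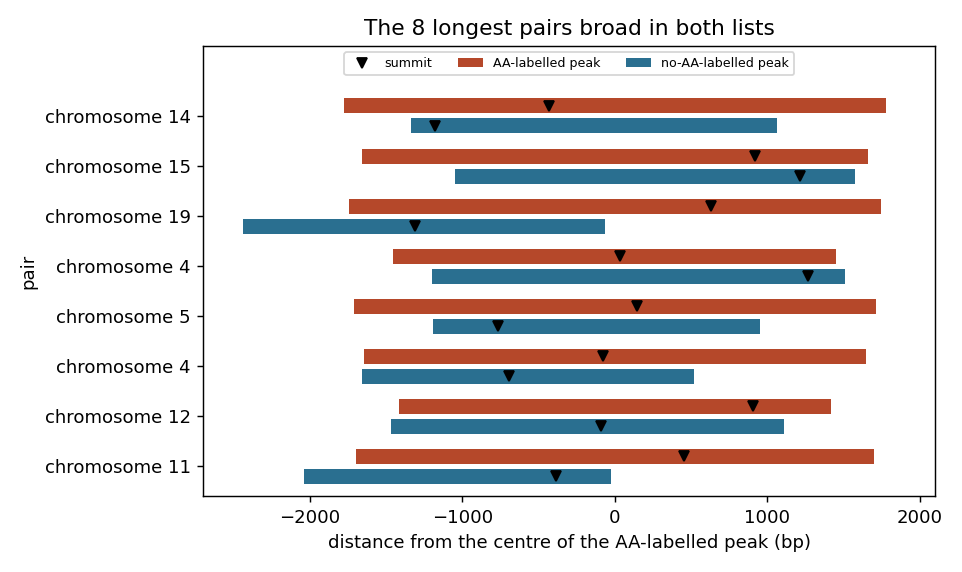
Bars show the extent of the 8 longest pairs broad in both lists, AA-labelled above and no-AA-labelled below, with distance in bp from the centre of the AA-labelled peak on the horizontal axis. Triangles mark the summits, which lie between 296 and 1947 bp apart, and each AA-labelled bar is longer than its partner.

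The longest members of each list showed how loosely extent was matched. The longest AA-labelled peak was on chromosome 15 (12824333 to 12828183), at 3851 bp with 99 tags, and its counterpart had 1820 bp with 75 tags. The following 4 had counterparts that were shorter still. They lay on chromosome 3 (51755553 to 51759330; 3778 against 1288 bp), chromosome 5 (121111618 to 121115288; 3671 against 1631 bp), chromosome 15 (59482815 to 59486478; 3664 against 1462 bp) and chromosome 11 (55253935 to 55257570; 3636 against 1220 bp). Chromosome 1 (57996555 to 58000168) and the chromosome 14 pair named above kept counterparts of 2853 and 2402 bp. The eighth, on chromosome 15 (78918336 to 78921885), had 3550 against 1353 bp.

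Among the longest no-AA-labelled members the counterparts were of both kinds. The first, on chromosome 15 (83731432 to 83734267), had 2836 bp with 99 tags, and its AA-labelled counterpart was longer, at 3423 bp with 111 tags. On chromosome 9 (106359419 to 106362113) the counterpart was likewise longer, at 3828 against 2695 bp. So were those on chromosome 4 (149541338 to 149544049), at 2907 against 2712 bp, and on chromosome 18 (37879729 to 37882397), at 2695 against 2669 bp. The other 4 had shorter counterparts. These were chromosome 12 (110209674 to 110212441; 2768 against 1750 bp), chromosome 8 (120861446 to 120864131; 2686 against 1013 bp), chromosome 6 (100263651 to 100266304; 2654 against 1817 bp) and chromosome 5 (66936667 to 66939313; 2647 against 1785 bp).

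The counterpart usually lay inside an AA-labelled member and off to one side. Among the 1880 with a single counterpart, it was nested within the broad peak in 1249 (66.4%), and it reached past both ends in 51 (2.71%). AA-labelled shared peaks under 2000 bp held their single counterpart wholly in 44.0%. The long shared AA-labelled peaks kept out by the tag limit did so in 67.3%, so nesting was not particular to the members. The part of the AA-labelled members left uncovered at the ends had a median of 1006 bp. Of the 1198 nested cases with at least 200 bp uncovered, 753 (62.9%) had 75% or more of it at one end. The single counterpart of a no-AA-labelled member was nested in 88 of 445 (19.8%) and reached past both ends in 108 (24.3%). For the long shared no-AA-labelled peaks kept out by the tag limit these shares were 20.9% and 33.6%. Over all members with 1 or more counterparts, a median of 57.8% of the AA-labelled and 89.1% of the no-AA-labelled peak was overlapped. The same medians were 79.7% and 99.0% in shorter shared peaks.

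A few members were split into a pair of peaks in the other list. This held for 100 of 1980 AA-labelled members (5.05%, 4.13% to 6.11%), against 1.11% of that list's shorter peaks and 1.50% over all its shared autosomal peaks. It held for 4 of 449 no-AA-labelled members (0.891%, 0.243% to 2.27%), against 0.179% and 0.205%. Long shared peaks with 100 or more tags overlapped 2 or more peaks in 4.33% and 0.773%, so this was not particular to the members. A longer peak has more room for a further counterpart. Per Mb of peak, the counterparts beyond the first numbered 21.2 (17.3 to 25.8) in the AA-labelled members and 9.98 (8.81 to 11.3) in its shorter peaks. The no-AA-labelled values were 4.05 (1.10 to 10.4) and 1.89 (1.38 to 2.52), whose intervals overlap. No member had more than 2 counterparts.

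In the 100 split AA-labelled members the no-AA-labelled parts had a median of 931 bp and were separated by a median of 165.5 bp (5 to 1711 bp). That median was close to the 165 bp fragment length of the no-AA-labelled library. In the 4 split no-AA-labelled members it was 123 bp, with a fragment length of 229 bp in the AA-labelled library. A link between gap and fragment length was not tested. The AA-labelled summit lay inside one of the parts in 96 of the 100. The longest split member was on chromosome 5 (115881516 to 115885042), with 3527 bp and 95 tags. Its no-AA-labelled parts ran from 115882192 to 115883239 with 33 tags and from 115884105 to 115885321 with 34 tags. The longest of the 4 no-AA-labelled cases, on chromosome 8 (99951076 to 99953346, 96 tags), lay over AA-labelled peaks of 1027 and 1088 bp with 21 and 23 tags.

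Summits of broad peaks were not held to the middle. A summit is the point of highest pile-up, and its place was not part of the rule, although it comes from the same tags. It fell in the middle 20% of the length in 24.3% of AA-labelled and 20.3% of no-AA-labelled members. For shorter shared peaks these shares were 47.7% and 45.5%. The outer 30% at either end held the summit of 49.4% (47.2% to 51.6%) and 55.5% (50.7% to 60.1%) of the members, against 18.0% and 22.0% of the shorter peaks. Long shared peaks with 100 or more tags were close to the members, with 43.3% and 47.9% in the outer 30% and 30.2% and 27.2% in the middle 20%. The quartiles of the summit position were 0.299 and 0.696 of the length in AA-labelled members and 0.269 and 0.721 in no-AA-labelled ones. They were 0.393 and 0.605, and 0.390 and 0.614, in the shorter peaks, so the spread of the members was the wider in both lists.

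Here too the change was gradual. The outer 30% held the summit of 13.0% of AA-labelled peaks under 1000 bp, 17.1% from 1000 to under 1500 bp, 33.7% from 1500 to under 2000 bp, 49.0% from 2000 to under 2500 bp and 50.4% from 2500 bp. The no-AA-labelled shares were 13.8%, 32.6%, 52.1%, 56.0% and 46.2%, the last over 26 peaks. No-AA-labelled peaks of 1500 to under 2000 bp were thus near the broad ones. The median distance of the summit from the centre was 1.87 times that of all shorter shared peaks in the AA-labelled list and 1.99 times in the other. Set beside peaks of 1500 to under 2000 bp alone, these ratios were 1.24 and 1.09.

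**Figure D3:**
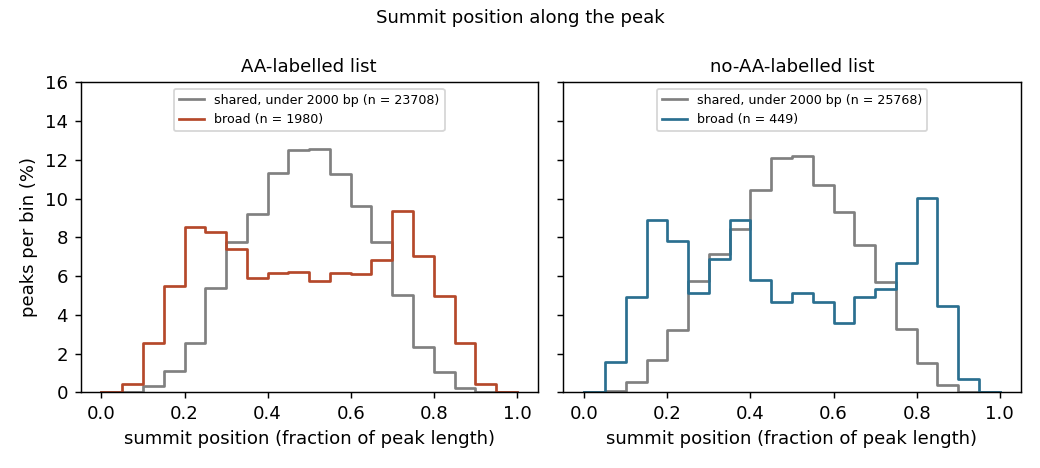
The horizontal axis is the summit's position as a fraction of the peak length, and the vertical axis is the percentage of peaks in each of 20 equal bins. Shorter shared peaks (grey) crowd around the centre, while the broad peaks of each list (coloured) spread out, with 24.3% and 20.3% in the middle 20% of the axis.

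The lists often placed the summit of a broad region at different points. The median distance between the summits of a member and its single counterpart was 342.5 bp (311 to 378) for AA-labelled members and 381 bp (318 to 456) for no-AA-labelled members. For shorter shared peaks it was 106 and 112 bp. Summits over 1000 bp apart occurred in 16.9% and 19.1% of members, and in 1.05% and 2.55% of the shorter peaks. Among the long shared peaks kept out by the tag limit, the median distances were 435 bp (AA-labelled) and 420.5 bp (no-AA-labelled). Summits over 1000 bp apart occurred in 23.6% and 21.8% of those with a single counterpart. Large distances between summits were thus not particular to the members. A longer peak leaves more room for such a distance. In the 167 pairs broad in both lists, 55 (32.9%) had summits within 200 bp and 30 (18.0%) had summits over 1000 bp apart. The AA-labelled summit lay inside the counterpart in 80.1% of the AA-labelled members, against 94.2% of shorter peaks. For the no-AA-labelled members it was 90.3% against 97.0%.

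Where both lists had a peak one to one, tag density was compared after scaling to the kept tags of each library. In the 2150 pairs with a broad peak in either list, the AA-labelled peaks had a median of 2.60 and the no-AA-labelled peaks of 2.17 tags per kb and 1000000 kept tags. AA-labelled over no-AA-labelled density had a median log2 ratio of 0.25 (0.24 to 0.27), with quartiles of 0.07 and 0.44. For pairs with both peaks under 2000 bp it was 0.20. Broad pairs were higher in the AA-labelled library in 82.3% and the shorter pairs in 73.9%. Scaling to the tags inside peaks turned the median of the broad pairs to -0.28, so the sign rests on the scaling. The difference of 0.046 between broad and shorter pairs does not depend on it, but it was -0.11 by fold enrichment and -0.019 with a minimum length of 2500 bp. A difference of the broad pairs from the shorter ones was thus small, and its sign depended on the measure.

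Large differences in density, scaled to kept tags, were rarer among broad pairs. Over all 26027 one-to-one autosomal pairs, 1.44% had a density more than 2-fold higher in the AA-labelled library, and 0.0231% had one more than 2-fold lower. Of the 2150 broad pairs, 7 were over 2-fold higher (0.326%, 0.131% to 0.670%) and 0 over 2-fold lower, which allows a share of up to 0.140%. Broad pairs held a median of 73 AA-labelled and 62 no-AA-labelled tags per peak, and shorter pairs 28 and 31, so counting error was smaller in the broad ones. The tags used by the rule enter this ratio, so these counts describe the members only. Not divided by length, tags per peak were over 2-fold higher in 987 (45.9%) of the broad pairs, against 20.5% of all pairs. They were over 2-fold lower in 15 (0.698%), against 0.407%. The direction followed the list in which the peak was chosen for its length. Where the AA-labelled peak was broad and the other under 2000 bp, 941 of 1527 (61.6%) were over 2-fold higher and 0 lower. Where the no-AA-labelled peak was broad and the other under 2000 bp, 0 of 197 were higher and 15 (7.61%) lower. The pooled excess went with peak length, since the AA-labelled peak of a broad pair was 2271 bp and the no-AA-labelled one 1519.5 bp long at the median.

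**Figure D4:**
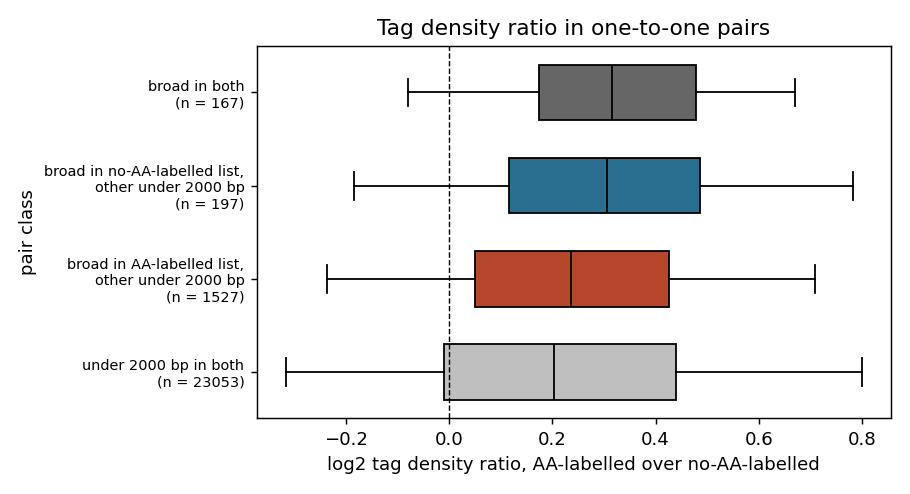
Boxes show the median and quartiles of the log2 ratio of tag density (tags per kb and 1000000 kept tags, AA-labelled over no-AA-labelled) in 4 classes of one-to-one pairs, and whiskers run from the 5th to the 95th percentile. The medians are 0.20 for pairs under 2000 bp in both, 0.24 and 0.31 for pairs broad in one list, and 0.31 for pairs broad in both, and all boxes overlap.

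Pairs broad in both lists had similar extents, but the tag limit bore on both of their peaks, at 8.40 AA-labelled and 5.44 no-AA-labelled tags per 1000000 kept tags. It capped the no-AA-labelled density at a lower level, which raises the ratio, so the values below are a description of the selected pairs. Their median log2 density ratio was 0.31 (0.28 to 0.36), and the AA-labelled density was higher in 149 of 167. Scaled to tags in peaks, the median was -0.21 and the AA-labelled density was higher in 36. The highest ratio was 0.92 (0.48 to 1.38) on chromosome 3 (68523843 to 68526037), where the AA-labelled peak had 96 tags over 2195 bp and the other 77 over 2161 bp. Then came chromosome 10 (126298537 to 126301099) at 0.90 with 99 against 65 tags and chromosome 7 (56177551 to 56179578) at 0.82 with 79 against 84. Chromosome 10 (84928755 to 84931342) at 0.75 and chromosome 12 (64451932 to 64453966) at 0.69 were next. The interval of each of these 5 excluded 0 when scaled to kept tags, and those of the first 4 excluded the median of 0.31 as well. Scaling to tags in peaks lowers every ratio by 0.53 on the log2 scale, and all 5 intervals then included 0.

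The lowest ratio was -0.27 (-0.80 to 0.25) on chromosome 17 (46187036 to 46189037), where the tags numbered 48 and 92. Then came the pair on chromosome 1 (184130640 to 184132836) at -0.23 with 57 against 96 tags and chromosome 9 (44121498 to 44123857) at -0.17 with 57 against 90. Chromosome 2 (181322344 to 181324374) at -0.16 and chromosome 4 (153218142 to 153220255) at -0.15 completed the lowest 5. Their intervals all included 0 when scaled to kept tags, but lay wholly below 0 when scaled to tags in peaks. Whether the AA-labelled density was lower at these 5 thus turned on the scaling. They are the ends of 167 values, and the intervals are not adjusted for that choice.

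Broad peaks had more peaks around them than shorter shared peaks as a whole, with a smaller difference from peaks just under the threshold. The nearest other peak of the same list was a median of 10110.5 bp from an AA-labelled member and 13576 bp from a shorter shared peak. The windows of 1 Mb around them held a median of 36 and 29 AA-labelled peaks. In the no-AA-labelled list the gaps were 10866 and 11676 bp, and the windows held 37 and 32 peaks. Windows around peaks of 1500 to under 2000 bp with under 100 tags held a median of 34 peaks in the AA-labelled and 36 in the no-AA-labelled list. The ratio of the median gaps, broad over shorter shared peaks, was 0.745 in the AA-labelled list. In the no-AA-labelled list it was 0.931 with an interval of 0.847 to 1.02, so a shorter gap was not resolved there. Against peaks of 1500 to under 2000 bp the ratio was 0.869 in the AA-labelled list and 1.02 in the other. Very close neighbours were less common than for shorter peaks: 1.57% of AA-labelled and 2.67% of no-AA-labelled members had a peak within 1000 bp, against 3.53% and 6.92%. Within 5000 bp the shares were 17.4% and 15.6% of the members, against 15.0% and 18.9%. Long shared peaks with 100 or more tags were close to the members. Of these, 1.20% and 2.47% had a peak within 1000 bp, with median gaps of 9845.5 and 10559 bp and windows of 37 and 40 peaks.

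The members also lay near each other. Another broad peak of the same list was within 100000 bp of 35.2% (33.0% to 37.3%) of the AA-labelled and 8.02% (5.68% to 10.9%) of the no-AA-labelled members. Of the shorter shared peaks, 17.0% and 5.12% had a broad peak that near. Long shared peaks with 100 or more tags had one in 37.5% and 13.0%, so this nearness went with long peaks in general and was not particular to the members. AA-labelled members occupied 987 of the 2412 windows of 1 Mb that held a shared autosomal peak, and no-AA-labelled members 371. The lists had 289 of these windows in common, which is 29.3% of the AA-labelled and 77.9% of the no-AA-labelled windows. The 169 overlaps broad in both lists contribute to these windows, and no background for these shares was computed.

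The largest run of broad peaks with gaps of at most 100000 bp was on chromosome 8 in the AA-labelled list. It held 9 members between 73813021 and 74183443, a span of 370 kb, of 2011 to 2842 bp with 71 to 96 tags. Each of the 9 overlapped a no-AA-labelled peak, but none of those counted as broad. The longest counterpart had 2295 bp with 113 tags, and the others had 812 to 1658 bp. Within the span there were 23 peaks of the AA-labelled list and 29 of the other, which covered 11.7% and 8.82% of it. The third of the run (73930734 to 73933575) was 1 of the split members, with no-AA-labelled parts of 1215 and 953 bp.

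The largest no-AA-labelled run had 4 members on chromosome 18 between 37829206 and 37927897, a span of 98.7 kb. These were 2005, 2669, 2340 and 2187 bp long with 69, 97, 90 and 94 tags. Their AA-labelled counterparts were 1626, 2695, 2813 and 2937 bp long with 53, 73, 113 and 143 tags, so the regions were long in both lists at 3 of 4 places. Peaks covered 26.8% of this span in the AA-labelled and 25.9% in the no-AA-labelled list.

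Broad peaks were unevenly spread over the chromosomes, and chromosome 8, singled out after its values were seen, had the highest share in both lists. There, 212 of 2064 shared AA-labelled peaks were broad (10.3%, 8.995% to 11.7%) and 57 of 2087 no-AA-labelled peaks (2.73%, 2.08% to 3.52%). It held 10.7% of the AA-labelled members against 7.07% of the shorter shared peaks, and 12.7% against 7.30% in the other list. With the long shared peaks kept out by the tag limit added to the members, its share rose to 13.8% (AA-labelled) and 18.8% (no-AA-labelled). The excess on chromosome 8 was thus not particular to the members. Chromosome 8 also stood at the top in the tag density of its shorter shared peaks. Their median was 27.8 tags per kb in the AA-labelled list, where the other autosomes ranged from 26.4 to 27.6, and 39.2 in the no-AA-labelled list, where they ranged from 35.5 to 37.8. Its shorter peaks were also the longest, with a median of 1093.5 bp against at most 1092.5 bp on another autosome in the AA-labelled list, and 944 against at most 901 bp in the other. Their no-AA-labelled median fold of 6.57 was below that of every other autosome (6.73 or more), while their AA-labelled one of 8.09 was within the range of the others. The part of these values in the share of broad peaks was not tested.

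Behind chromosome 8 the order differed between the lists. The AA-labelled list had chromosome 15 next at 9.78% (8.00% to 11.8%), then chromosomes 11 (8.96%) and 19 (8.95%). The no-AA-labelled list had chromosomes 5 (2.32%, 1.64% to 3.19%), 19 (2.22%) and 11 (2.11%). Chromosome 3 was lowest in the AA-labelled list, at 4.79% (3.77% to 5.999%), and among the 3 lowest in the other at 0.922% (0.505% to 1.54%). The lowest no-AA-labelled shares were on chromosomes 6 (0.803%) and 12 (0.848%). The intervals of chromosomes 3 and 8 did not overlap in either list. Those of neighbours in the order overlapped, and their order is not resolved at these counts.

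**Figure D5:**
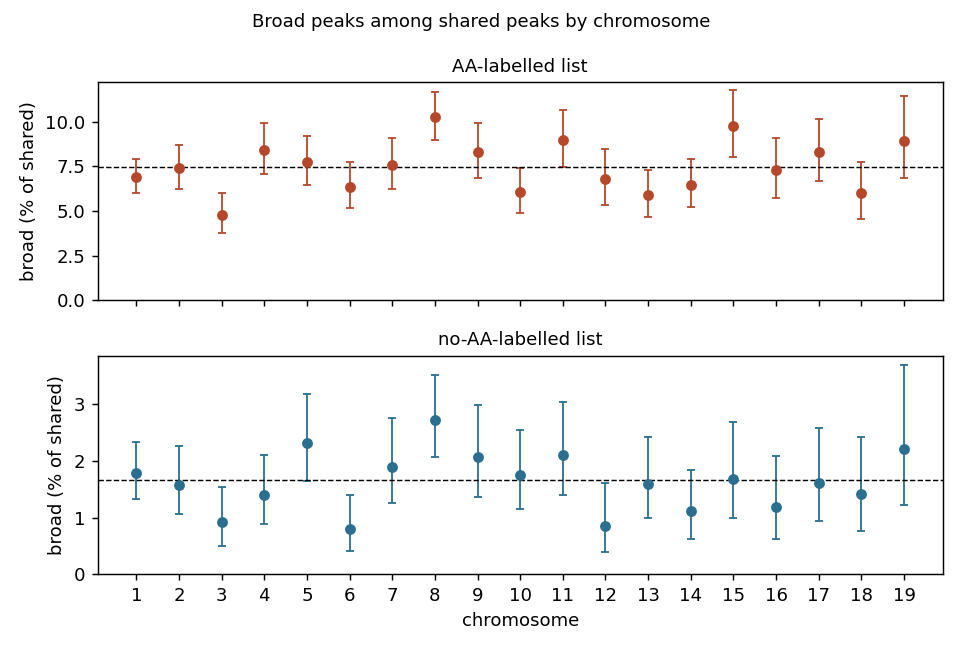
Points give the share of shared peaks that are broad on each autosome (per cent), in the AA-labelled list (top) and the no-AA-labelled list (bottom). Bars are Clopper-Pearson intervals for counting error, the dashed lines mark the shares over all autosomes, 7.47% and 1.67%, and chromosome 8 is highest in both panels.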

How the data were processed

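Fragments with 5hmC were pulled down from ES cell DNA and sequenced as 2 libraries, 1 per group. The submitters' processing notes name BWA 0.5.9-r16, MACS 1.4.2 and build mm9. Each list was called on 1 library with no control, at a p cutoff of 1e-05 and with a regional background over 10000 bp, keeping 1 tag per position, per the file headers. The deposited tag counts are raw. The deposited score is 10 times the −log10 p, and the deposited fold enrichment is a ratio to the caller's background. Both belong to their own library. Depth was 11907082 (AA-labelled) and 18398162 kept tags.

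Overlaps, gaps to the nearest peak, summit positions and density ratios were computed with Python 3.11.15, pandas 2.3.3, NumPy 2.4.6 and SciPy 1.17.1, and the code was tested on simulated data. Shares have Clopper-Pearson intervals, counts Poisson ones, count ratios exact ones conditional on their sum, and medians intervals from order statistics. They cover counting error or the spread over peaks only, and tags without molecular identifiers may not be separate molecules. No test between groups was made. An upper limit for a count of 0 is 3 counts.

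The members and lists were chosen with earlier results of these data known. Named regions were the 8 longest, the 5 of highest and 3 of lowest fold, the one with the most counterparts, the 3 nearest to 2000 bp on each side and the largest run in each list. Among pairs broad in both lists they were the 8 longest and the 5 highest and 5 lowest density ratios. Alternatives changed the length, tag and overlap thresholds, the p cutoff, the scaling and the classes compared.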

Additional observations from a re-analysis of the deposited data

Results flagged for a closer look

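Chromosome X was outside the autosomes from which broad peaks were taken, and it also held peaks that met the length, tag and overlap conditions. There were 25 among 950 shared AA-labelled peaks of chromosome X (2.63%, Clopper-Pearson interval 1.71% to 3.86%) and 3 among 966 shared no-AA-labelled peaks (0.311%, 0.0641% to 0.905%). The autosomal shares were 7.47% and 1.67%. On chromosome Y there were 0 among 7 and 8 shared peaks. The difference between chromosome X and the autosomes was not tested.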

How the results depend on the processing

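The fragment-length threshold, the comparisons with shorter peaks of 1500 to under 2000 bp or of under 100 tags, and the scaled tag limit on chromosome 8 were chosen after seeing the data. The 1980 AA-labelled and 449 no-AA-labelled broad peaks became 5843 and 2536 with a minimum length of 1500 bp, 589 and 26 with 2500 bp, 381 and 123 with a stricter p cutoff (1e-10), and 449 and 1980 after exchanging the lists to follow the file headers. AA-labelled members fell to 1170 with 50% reciprocal overlap. No-AA-labelled members rose to 1096 without a tag limit, 954 with the limit scaled to kept tags and 2981 with a length threshold scaled to fragment length. The shares with a counterpart past the length threshold, 17.8% and 55.0%, became 33.6% and 76.2% at 1500 bp, 8.998% and 30.8% at 2500 bp, 44.2% and 19.8% at equal percentiles, 28.0% and 71.7% without a tag limit, 29.1% and 65.0% with a p of at most 1e-10, 29.4% and 59.8% with 50% reciprocal overlap, and 45.6% and 32.4% with the fragment-length threshold. Split members moved from 5.05% to 3.83% at 1500 bp (AA-labelled) and from 0.891% to 0% at 2500 bp (no-AA-labelled). The median log2 density ratio of broad pairs, 0.25, became 0.92 for tags per peak, -0.28 with scaling to tags in peaks, -0.38 without scaling, 0.11 for fold enrichment, 0.31 for pairs broad in both, 0.27 at 1500 bp, 0.19 at 2500 bp and -0.25 with the lists exchanged. Its difference from shorter pairs, 0.046, became 0.43 for tags per peak, -0.11 for fold enrichment, 0.11 for pairs broad in both, 0.087 at 1500 bp, -0.019 at 2500 bp and -0.046 with the lists exchanged. The summit offset ratios, 1.87 and 1.99, became 4.28 and 5.36 in bp and 1.24 and 1.09 against peaks of 1500 to under 2000 bp, and the no-AA-labelled one 1.83 without a tag limit. The gap ratio of 0.745 in the AA-labelled list became 0.869 against peaks of 1500 to under 2000 bp. That of 0.931 in the other became 0.798 to the nearest shared peak, 0.665 at 2500 bp and 1.02 against peaks of 1500 to under 2000 bp. The share on chromosome 8 over that of shorter peaks, 1.51 and 1.74, became 1.95 and 2.57 without a tag limit, and the no-AA-labelled one 2.35 with the scaled limit. The cause of these moves was not tested, apart from the scalings, which shift every pair alike. Of 76 alternatives, 22 stayed within the interval of the main value or 1.5 times a count. No paired analysis was possible because there is 1 library on each side. Leaving out a library was not possible either.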
